A study of Mus musculus with 2 samples.

Results

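The 33 genes described here are genes of developing T cells (thymocytes), of lymphocytes more widely and of the thymus, followed through 2 libraries of newborn mouse heart. They were chosen by symbol because their counts were higher in replicate 1 than in replicate 2, so the direction of that difference is how they were picked and no test is given for it. They are 33 of the 43346 genes in the deposited tables. By role they divide into 3 genes of receptor gene recombination, 6 of the T cell receptor complex, 3 co-receptor genes, 4 of proximal signalling, 6 lineage regulators, 5 surface receptors, Arpp21, 2 genes of thymic epithelium and 3 of B cells.

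Both libraries were made from total RNA of hearts of B6NTac;B6NCrl/Lap mice at postnatal day 0, with both sexes pooled, with no treatment and no altered allele given in the labels. Hearts of 15 mice went into replicate 1; replicate 2 was also pooled, from an unstated number. The labels call the replicates biological and independent isolates, both under 1 donor label, so the spread between them covers at least the isolation and the library. RNA longer than 200 nucleotides was depleted of ribosomal RNA and sequenced as stranded paired reads. Replicate 1 held 69946215 expected counts over genes and replicate 2 held 73615802, and 16502 and 16005 genes had counts in replicates 1 and 2. The 11 cardiomyocyte genes checked as markers of heart summed to 15458.87 TPM (a level per length of transcript, scaled to the same total in each library) in replicate 1 and 16107.54 TPM in replicate 2, and none of the 11 differed by 2-fold.

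Thymocytes are immature T cells that develop in the thymus, a lymphoid organ of the chest. They cut and join the V, D and J segments of their receptor genes with the RAG recombinase, pair the receptor chains with the CD3 subunits, and pass through a stage at which both co-receptors, CD4 and CD8, are on the surface. The receptor has no enzyme of its own and signals through the kinases LCK and ZAP70 and the adaptor LAT. In RNA from a whole organ, fewer cells of a type and less RNA per cell cannot be told apart, and neither can be read from a gene's level alone.

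The 250 bases before 6 annotated starts are shown first. They come from RefSeq on GRCm38.p6 and are written on the strand of the gene. Capitals mark matches, on either strand, to 5 short motifs: TGTGGT of Runx factors, CTTTGA of TCF and LEF factors, CAGNTG of E proteins, AGGAAG of Ets factors and AGATAA of GATA factors. Matches may overlap, as an E protein motif and a Runx motif do in Rag1. Rag1 and Rag2 are neighbours that point towards each other, with starts 24820 bases apart. Cd3d and Cd3e belong to 1 cluster of CD3 genes, and Lck has starts at 2 sites 15269 bases apart.

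Rag1, chr2:101649533-101649782, minus strand: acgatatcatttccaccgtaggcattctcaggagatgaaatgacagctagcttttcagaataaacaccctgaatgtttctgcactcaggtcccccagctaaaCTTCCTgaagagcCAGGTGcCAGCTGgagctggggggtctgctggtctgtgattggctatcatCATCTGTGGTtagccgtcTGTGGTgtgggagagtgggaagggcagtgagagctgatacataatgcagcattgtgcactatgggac
Rag2, chr2:101624462-101624711, plus strand: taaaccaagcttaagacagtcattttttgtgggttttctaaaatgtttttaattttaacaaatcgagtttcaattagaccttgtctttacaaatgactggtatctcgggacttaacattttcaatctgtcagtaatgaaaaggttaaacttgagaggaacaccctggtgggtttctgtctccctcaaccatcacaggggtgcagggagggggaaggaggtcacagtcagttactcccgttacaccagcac
Cd3d, chr9:44981536-44981785, plus strand: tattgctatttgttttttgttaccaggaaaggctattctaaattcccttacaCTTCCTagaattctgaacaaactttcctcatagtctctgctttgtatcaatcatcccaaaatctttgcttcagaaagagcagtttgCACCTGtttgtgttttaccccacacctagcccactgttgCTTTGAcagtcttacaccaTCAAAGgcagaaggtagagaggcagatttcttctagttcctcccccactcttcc
Cd3e, chr9:45009612-45009861, minus strand: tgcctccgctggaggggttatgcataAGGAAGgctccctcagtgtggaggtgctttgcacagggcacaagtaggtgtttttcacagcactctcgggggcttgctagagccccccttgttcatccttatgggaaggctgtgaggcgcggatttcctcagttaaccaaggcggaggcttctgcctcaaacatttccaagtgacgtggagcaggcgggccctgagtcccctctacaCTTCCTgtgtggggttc
Lck, upstream start, chr4:129573642-129573891, minus strand: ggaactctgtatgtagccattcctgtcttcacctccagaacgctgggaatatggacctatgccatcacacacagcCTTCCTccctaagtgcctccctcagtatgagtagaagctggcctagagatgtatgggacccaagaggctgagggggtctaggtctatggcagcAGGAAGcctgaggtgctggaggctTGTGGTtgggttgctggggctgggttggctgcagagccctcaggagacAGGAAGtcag
Lck, downstream start, chr4:129558373-129558622, minus strand: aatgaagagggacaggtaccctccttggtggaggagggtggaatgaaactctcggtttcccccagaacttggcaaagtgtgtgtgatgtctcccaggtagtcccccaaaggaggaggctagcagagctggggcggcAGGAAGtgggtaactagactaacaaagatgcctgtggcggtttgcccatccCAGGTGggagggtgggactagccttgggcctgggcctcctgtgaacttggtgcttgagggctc

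The Rag1 window held 2 Runx, 3 E protein and 1 Ets match, and the Rag2 window held none of the 5 motifs. The Cd3d window held 2 TCF and LEF matches, 1 E protein and 1 Ets match, and the Cd3e window only 2 Ets matches. Upstream of Lck, the far window held 1 Runx match and 3 Ets matches, and the near window 1 E protein and 1 Ets match. Such matches are common. Among 41 annotated starts of 23 of the genes, 6 windows held the Runx motif, 6 the TCF and LEF motif, 24 the E protein motif, 16 the Ets motif and 3 the GATA motif. Among 32851 mouse promoters of the same length the shares were 14.0%, 13.8%, 44.8%, 29.5% and 9.99% in that order. A match of letters is a description of the window and says nothing of what binds there.

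Differences between the libraries are given as ratios of expected counts, replicate 1 over replicate 2, scaled to a common total and centred on the median gene, with a pseudocount of 1 count. A ratio was formed where the summed count reached 10, which 25 of the 33 genes did and 8 did not. Of the 25, 23 were higher in replicate 1 by 2-fold or more, none was lower by 2-fold, and 2, Satb1 and Tox, were neither. The gene choice fixed that direction. Across all 16205 genes with a ratio, 16.1% were 2-fold or more higher in replicate 1 and 15.3% were 2-fold or more lower, so a 2-fold difference is common between these libraries in both directions. The median log2 ratio was 5.95 over the 25 genes, 4.98 with genes at 0 counts in replicate 2 set at their lower bound, and 0.01 over all genes with a ratio. The genes nearest the 2-fold threshold were Bcl11b (log2 ratio 1.63) and Lck (1.64) inside it and Satb1 (0.53) outside it.

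The levels were low throughout. The 33 genes summed to 52.05 TPM in replicate 1 and 7.15 TPM in replicate 2, a mean of 29.6 ± 31.7 TPM (SD, n = 2). Satb1 alone made 4.59 of the 7.15 TPM in replicate 2. In replicate 1, 15 of the genes reached 1 TPM, and in replicate 2 only Satb1 did. At 0.1 TPM the numbers were 25 in replicate 1 and 6 in replicate 2. Counts of 0 were found for 2 of the genes in replicate 1 and for 21 in replicate 2, and Dntt and Cd3e were at 0 in both. Of the genes that define thymocytes, Rag2, Cd8b1 and Zap70 also had only 3 counts each in replicate 1, so the group is not a complete thymocyte set in these counts.

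A count of 0 in 1 library beside more than 100 in the other was not rare among other genes. Of the 2704 genes with 100 to under 400 counts in replicate 1, 130 (4.81%) had 0 counts in replicate 2. The reverse held for 170 of 2620 genes (6.49%). Of the 33 genes, 13 lay in that range in replicate 1, and 8 of those had 0 counts in replicate 2. Where replicate 2 had 0 counts, a fold is given as a lower bound against a floor of 3 counts, and intervals are exact 95% intervals. Both cover counting error only.

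**Figure D1:**
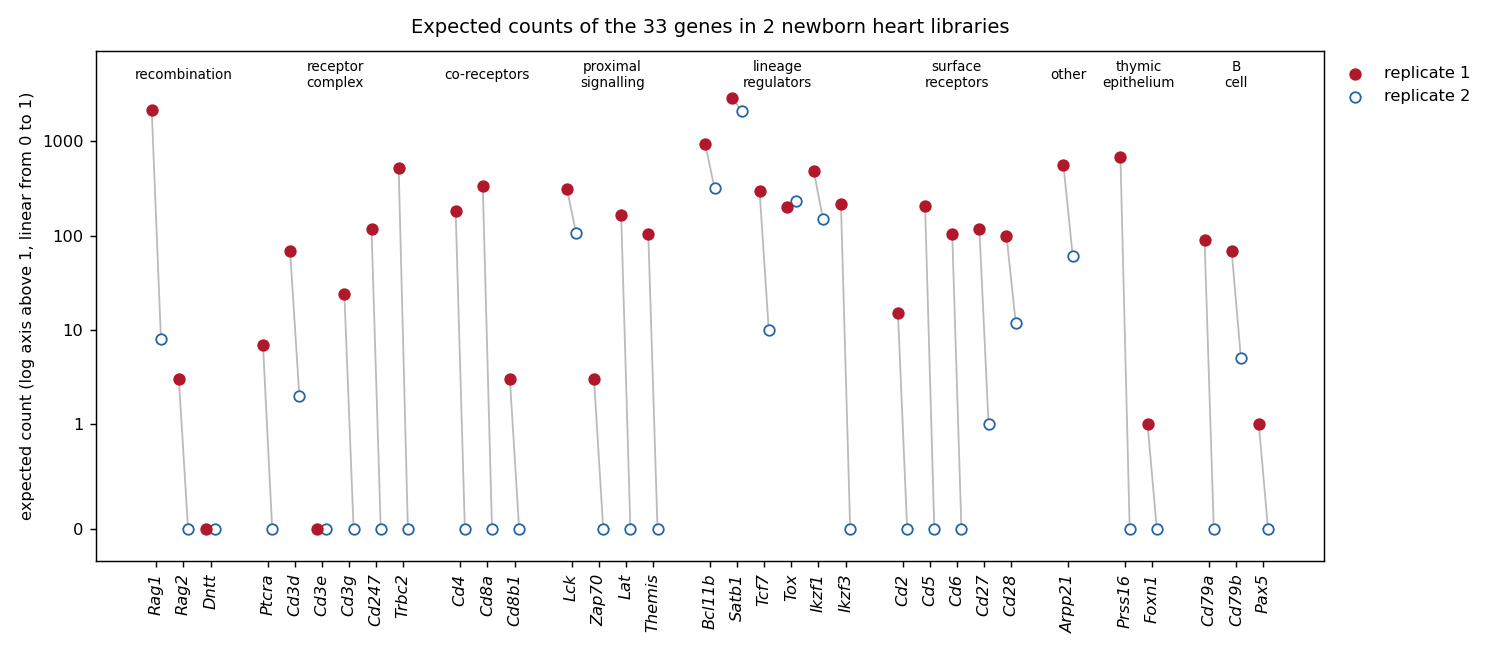
Expected counts of the 33 genes in replicate 1 (filled points) and replicate 2 (open points), grouped by role, on an axis that is logarithmic above 1 and linear from 0 to 1. The 21 genes on the lowest line in replicate 2 have 0 counts there, while the pairs of points for Satb1 and Tox lie closest together among genes with counts in both.

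Of the recombination genes, Rag1 carried nearly all the counts. Rag1 encodes the subunit of the recombinase that cuts DNA at the receptor segments. Rag1 (ENSMUSG00000061311.6, chr2:101638282-101649501, minus strand, GRCm38) had 2138 counts (3.20 TPM) in replicate 1 and 8 counts (0.01 TPM) in replicate 2. The scaled ratio was 282, with a counting interval of 143 to 653. Rag2 (chr2:101624718-101632529, plus strand), the partner without which RAG1 does not cut, had only 3 counts (0.02 TPM) in replicate 1 and 0 in replicate 2, too few for a fold. The 2 genes of 1 enzyme were thus far apart in level within the same library. Dntt, the polymerase that adds bases at segment joints and that mouse thymocytes turn on around or after birth, had 0 counts in both, where 3 counts would be 0.0157 TPM in replicate 1 and 0.0150 TPM in replicate 2. An overlapping annotated gene, B230118H07Rik, lies on the strand of Rag1 and had 565 counts in replicate 1 and 661 in replicate 2, so it did not share the difference seen at Rag1. How reads in the overlap were divided is not stated.

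The receptor complex had the highest summed level in replicate 1 after the lineage regulators, 14.34 TPM in replicate 1 and 0.02 TPM in replicate 2. Trbc2, a constant region of the receptor beta chain (chr6:41546730-41548352, plus strand), had 523.58 expected counts (12.31 TPM) in replicate 1 and 0 in replicate 2, at least 184-fold higher. It had the highest TPM of the 33 genes in replicate 1 and the second largest ratio. Its near-identical copy Trbc1 had 167.42 expected counts (3.54 TPM) in replicate 1 and 0 in replicate 2. The division of reads between the copies is uncertain, and their sum was 691 counts in replicate 1 and 0 in replicate 2.

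The CD3 chains, which carry the receptor's signalling motifs, were uneven. Cd247, the zeta chain, had 118 counts (1.03 TPM) in replicate 1 and 0 in replicate 2, at least 41.4-fold higher. Cd3d had 68 counts (0.62 TPM) in replicate 1 and 2 counts (0.02 TPM) in replicate 2, a ratio of 35.8 with an interval of 9.54 to 302. Cd3g, whose start lies 1355 bases from that of Cd3d, had 24 counts (0.31 TPM) in replicate 1 and 0 in replicate 2, at least 8.43-fold higher. These 3 chains were detected in replicate 1, and the fourth was not. Cd3e, which starts 27825 bases from Cd3d and is part of every T cell receptor complex, had 0 counts in both libraries, where 3 counts would be 0.0248 TPM in replicate 1 and 0.0236 TPM in replicate 2. Ptcra, the surrogate alpha chain of immature thymocytes, had 7 counts (0.07 TPM) in replicate 1 and 0 in replicate 2, and no fold is given. The opposite-strand gene Pou2f1 overlaps Cd247 and had 2206 counts in replicate 1 and 2461 in replicate 2.

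Both main co-receptor chains were counted in replicate 1 alone. Cd8a, the alpha chain of CD8 (chr6:71373427-71379173, plus strand), had 339 counts (1.14 TPM) in replicate 1 and 0 in replicate 2, at least 119-fold higher and the sixth largest ratio. Cd4, the co-receptor for MHC class II (chr6:124864692-124888221, minus strand), had 184 counts (1.17 TPM) in replicate 1 and 0 in replicate 2, at least 64.6-fold higher. The 2 stood at nearly the same level per length over all transcripts of each gene. For Cd4 that level leans on a short transcript not annotated as protein-coding. Cd4-203, of 591 bases, held 19.41 of the 184 counts but 51.85% of the gene's abundance in replicate 1. The protein-coding Cd4-201 held 46.12% of it, while both Cd8a transcripts with counts are protein-coding. Cd8b1, the beta chain with which CD8 alpha pairs on thymocytes, had 3 counts (0.03 TPM) in replicate 1 and 0 in replicate 2, and no fold is given.

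Among the signalling genes, Lck differed from the others in being counted in both libraries. Lck encodes the kinase that is bound to CD4 and CD8 and phosphorylates the CD3 chains. It had 315 counts (2.36 TPM) in replicate 1 and 106 counts (0.54 TPM) in replicate 2, a ratio of 3.13 with an interval of 2.51 to 3.94. Lat, the membrane adaptor that ZAP70 phosphorylates, had 167 counts (1.67 TPM) in replicate 1 and 0 in replicate 2, at least 58.7-fold higher. Themis, a thymocyte protein needed for positive selection, had 103 counts (0.39 TPM) in replicate 1 and 0 in replicate 2, at least 36.2-fold higher. Zap70, the kinase that binds the phosphorylated chains, had 3 counts (0.03 TPM) in replicate 1 and 0 in replicate 2. As with the recombinase and CD3, a central subunit of the pathway was near 0 while its partners were counted.

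The lineage regulators are DNA-binding proteins, and several work outside T cells. They had the smallest differences of any role, with a summed level of 17.63 TPM in replicate 1 and 6.23 TPM in replicate 2. Satb1, a chromatin organiser abundant in thymocytes (chr17:51736187-51833290, minus strand), had 2863 counts (8.03 TPM) in replicate 1 and 2095 counts (4.59 TPM) in replicate 2, a mean of 6.31 ± 2.43 TPM (SD, n = 2). Its ratio was 1.44 with an interval of 1.36 to 1.52. Tox, a regulator needed for CD4 T cell development, had 202 counts (0.76 TPM) in replicate 1 and 231 counts (0.61 TPM) in replicate 2, a mean of 0.685 ± 0.106 TPM (SD, n = 2). The interval of its ratio, 0.759 to 1.12 around 0.921, includes 1. Neither reached 2-fold, and the interval of Satb1 lies above 1 while that of Tox does not.

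Bcl11b, which commits progenitors to the T lineage and is also made in other tissues, had 935 counts (1.91 TPM) in replicate 1 and 318 counts (0.71 TPM) in replicate 2, a ratio of 3.10 with an interval of 2.73 to 3.53. Ikzf1, which encodes Ikaros, a factor of all lymphoid lineages, had 481 counts (3.37 TPM) in replicate 1 and 149 counts (0.28 TPM) in replicate 2, a ratio of 3.40 with an interval of 2.82 to 4.12. The ratio of its TPM is larger than that of its counts because the libraries' counts were assigned to transcripts of different length, with a mean effective length of 1350.91 bases in replicate 1 and 4874.79 bases in replicate 2. Tcf7, which encodes TCF1, a factor downstream of Notch in early thymocytes, had 298 counts (1.38 TPM) in replicate 1 and 10 counts (0.04 TPM) in replicate 2, a ratio of 31.4 with an interval of 16.8 to 66.2. Ikzf3, which encodes Aiolos, a relative of Ikaros in lymphocytes, had 215 counts (2.18 TPM) in replicate 1 and 0 in replicate 2, at least 75.5-fold higher. Within the group, then, the factors with more than 100 counts in replicate 2 differed least, and Tcf7 and Ikzf3 most.

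Short transcripts annotated inside Satb1, still awaiting experimental support in the annotation, differed more than Satb1 itself. The 6 such genes, 5 of them on its strand, summed to 729 counts in replicate 1 and 100 in replicate 2. C230085N15Rik alone had 300 counts in replicate 1 and 4 in replicate 2. Around Tcf7, the overlapping genes Gm26551 (29 counts in replicate 1, 0 in replicate 2) and A630014C17Rik (11 in replicate 1, 1 in replicate 2) were small beside Tcf7.

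**Figure D2:**
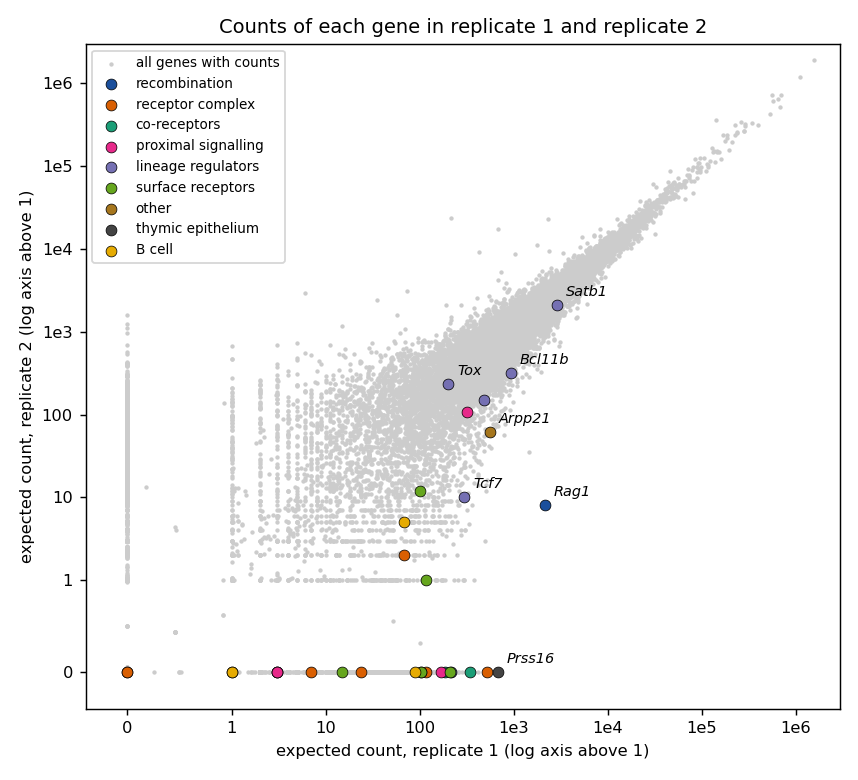
Expected counts of all genes in replicate 1 (horizontal) and replicate 2 (vertical), logarithmic above 1, in grey, with the 33 genes coloured by role. Satb1, Bcl11b and Tox lie within the grey cloud near the diagonal, whereas Rag1 (2138 counts in replicate 1, 8 in replicate 2) and Prss16 (674 in replicate 1, 0 in replicate 2) lie at its lower right edge.

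The surface receptors were uniformly low in replicate 2, summing to 3.25 TPM in replicate 1 and 0.04 TPM in replicate 2. Cd5, a receptor that dampens T cell receptor signals, had 208 counts (1.11 TPM) in replicate 1 and 0 in replicate 2, at least 73.1-fold higher. Cd6, its close relative, had 104 counts (0.87 TPM) in replicate 1 and 0 in replicate 2, at least 36.5-fold higher. Cd2, an adhesion receptor, had 15 counts (0.16 TPM) in replicate 1 and 0 in replicate 2, at least 5.27-fold higher. None of these 3 had a count in replicate 2.

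The costimulatory receptors were counted in both. Cd27, of the TNF receptor family, had 118 counts (0.88 TPM) in replicate 1 and 1 count (0.01 TPM) in replicate 2, a ratio of 124 with an interval of 21.9 to 4952. Cd28, the receptor for CD80 and CD86, had 100 counts (0.23 TPM) in replicate 1 and 12 counts (0.03 TPM) in replicate 2, a ratio of 8.78 with an interval of 4.81 to 17.6. The width of the Cd27 interval comes from its single count. The opposite-strand gene Vamp1 overlaps Cd27 and had 538 counts in replicate 1 and 285 in replicate 2. Arpp21, an RNA-binding phosphoprotein known from neurons and found in thymocytes, had 559 counts (2.07 TPM) in replicate 1 and 61 counts (0.26 TPM) in replicate 2, a ratio of 9.66 with an interval of 7.40 to 12.8.

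The 2 genes of thymic epithelium were at opposite ends. Prss16, the thymus-specific serine protease of cortical epithelium (chr13:22002173-22009742, minus strand), had 674 counts (3.43 TPM) in replicate 1 and 0 in replicate 2, at least 237-fold higher. That was the largest log2 ratio among the 13836 genes with a summed count of 100 or more. Foxn1, the master regulator of thymic epithelium, had 1 count in replicate 1 and 0 in replicate 2. The other 18 thymic epithelium genes examined did not, as a set, share the difference at Prss16. Of 12 with a ratio, 4 (33.3%) were 2-fold or more higher in replicate 1 and 3 (25%) lower. The shares over all genes were 16.1% and 15.3%. The median log2 ratio was 0.37, with a summed level of 5.48 TPM in replicate 1 and 16.69 TPM in replicate 2. Eya1, also made in other tissues, had 170 counts in replicate 1 and 212 in replicate 2, and Cldn3, an epithelial tight junction gene, had 102 in replicate 1 and 431 in replicate 2. Eya1 was at 0.66 TPM in replicate 1 and 4.85 TPM in replicate 2. Its effective length was 2451.74 bases in replicate 1 and 394.61 in replicate 2, so its TPM differed more than its counts. Cldn3 (4.01 TPM), Krt5 (1.97 TPM) and Cldn4 (2.71 TPM, picked after its values were seen) made most of the rest in replicate 2. The summed level is thus not a measure of thymic epithelium alone. Psmb11, a proteasome subunit particular to cortical epithelium, had 1 count in replicate 1 and 0 in replicate 2. Fezf2, a regulator of medullary epithelium, had 0 in both, Krt5 had 0 in replicate 1 and 414 in replicate 2, and Ccl25, a chemokine, had 43 in replicate 1 and 29 in replicate 2.

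Of the B cell genes, the receptor's signalling chains were counted and the lineage factor was not. Cd79a had 90 counts (0.73 TPM) in replicate 1 and 0 in replicate 2, at least 31.6-fold higher. Cd79b had 68 counts (0.58 TPM) in replicate 1 and 5 counts (0.05 TPM) in replicate 2, a ratio of 14.3 with an interval of 5.85 to 45.5. Pax5, the factor that holds B cell identity, had 1 count (0.01 TPM) in replicate 1 and 0 in replicate 2. Other B cell markers lay in both directions. Of 16 examined, 9 were at 0 in both libraries, including Blk, Igkc and Ighd. The effective length of Igkc was only 38.44 bases in replicate 1, where 3 counts would be 0.739 TPM, so its 0 says little. Of the 5 with a ratio, 2 were higher and 2 lower by 2-fold (40% each way, against 16.1% and 15.3% over all genes). Their median log2 ratio was 0.96, and the 16 summed to 5.17 TPM in replicate 1 and 3.33 TPM in replicate 2. Ighm, the constant region of IgM, had 197 counts in replicate 1 and 98 in replicate 2, and Ebf1, made in stromal cells as well as B cells, had 1658 in replicate 1 and 895 in replicate 2. Among genes picked after their values were seen, Cd72 had 25 counts in replicate 1 and 3 in replicate 2, a ratio of 8.78 with an interval of 2.68 to 45.4. Bank1 had 9 in replicate 1 and 0 in replicate 2. Ms4a1, the CD20 gene, had 0 counts in replicate 1 and 51 in replicate 2, and Vpreb3 had 0 in replicate 1 and 17 in replicate 2.

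By level in replicate 1 the order was Trbc2, Satb1, Prss16, Ikzf1, Rag1, Lck, Ikzf3, Arpp21, Bcl11b, Lat, Tcf7, Cd4, Cd8a, Cd5 and Cd247, all above 1 TPM. In replicate 2 the order began Satb1, Bcl11b, Tox, Lck, Ikzf1 and Arpp21, and every other gene was under 0.1 TPM. Of those 6, Tox alone was not among the first 15 in replicate 1. Each level is 1 value per library, so neighbours in either order cannot be told apart by replicate spread. Short transcripts also weigh on the order, as for Cd4 above. Ikzf3-204, of 670 bases and not annotated as protein-coding, held 71.49 of the 215 counts of Ikzf3 in replicate 1 but 81.71% of its abundance.

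The receptor loci gave a view that the 33 genes do not. Over all 237 annotated T cell receptor segment genes, replicate 1 held 931 counts and replicate 2 held 0. The constant genes Trbc1 and Trbc2 made 691 of them. The rest, 240 counts, fell on 4 of 132 V segments, namely Trbv26 with 176 counts (21.28 TPM, on a short gene), Trbv1 with 31, Trbv16 with 30 and Trbv14 with 3. All are of the beta chain. The constant genes of the alpha chain (Trac) and of the gamma chain (Tcrg-C1, Tcrg-C2 and Tcrg-C4) had 0 counts in both libraries. The effective length of Trac was only 124.12 bases in replicate 1, so its 0 there still allows up to 3 counts, or 0.229 TPM. For the gamma genes 3 counts would be at most 0.133 TPM in replicate 1. The D and J segments also had 0 counts, but they are too short to hold a whole read, so their 0 says little. Of the 338 immunoglobulin genes, only Ighm had counts, and no V segment did. How the authors' counting treated reads across rearranged segments is not stated.

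The transcript tables show which isoforms carried the counts. Of the counts of the 33 genes, 84.3% in replicate 1 and 95.5% in replicate 2 were assigned to protein-coding transcripts, and 6.30% in replicate 1 and 2.50% in replicate 2 to retained-intron transcripts. Leading transcripts could be compared for 8 genes with several transcripts and at least 10 counts in each library. The leading transcript was the same in 4 of them (Bcl11b, Cd28, Tcf7 and Tox) and differed in the other 4 (Arpp21, Ikzf1, Lck and Satb1). For Satb1 in replicate 1, Satb1-213 led with 692.04 counts (posterior SD 133) over Satb1-211 with 638.17. For Arpp21 in replicate 2, Arpp21-207 led with 32 counts (posterior SD 6.1) over Arpp21-206 with 29 (posterior SD 6.34). Which transcript led is not settled in either case. In replicate 1, Lck-202, which begins at the upstream start shown above, held 174.02 of 315 expected counts (55.2%, posterior SD 21.3 counts), and Lck-201, which begins near the downstream start, held 114.88 (36.5%, posterior SD 20.07). In replicate 2 all 106 counts were assigned to Lck-208, which begins at position 129558372, at the downstream start (posterior SD 25.07). Lck-202 and Lck-201, at 0 there, had posterior SDs of 19.26 and 18.17 counts, so the assignment of Lck in replicate 2 is loose. In mouse, the upstream Lck promoter is known to be used in mature T cells as well as thymocytes, and the downstream one mainly in thymocytes.

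The split of Ikzf1 was tighter. In replicate 1, Ikzf1-203 held 331.42 of 481 counts (68.9%) and Ikzf1-201 held 120.58 (25.1%), while in replicate 2 Ikzf1-204 held all 149 (posterior SD 3.7). Tox-201 held 83.96 counts (41.6%) in replicate 1 and 202.41 in replicate 2, and Tox-203 held 39.23 in replicate 1 and 0 in replicate 2, although the gene's total was close in the libraries. Bcl11b kept 1 leading transcript, Bcl11b-201, with 679.61 counts in replicate 1 and 197.87 in replicate 2. Assignments of reads to transcripts that share most of their exons are estimates, and at these counts they can settle on a single isoform.

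**Figure D3:**
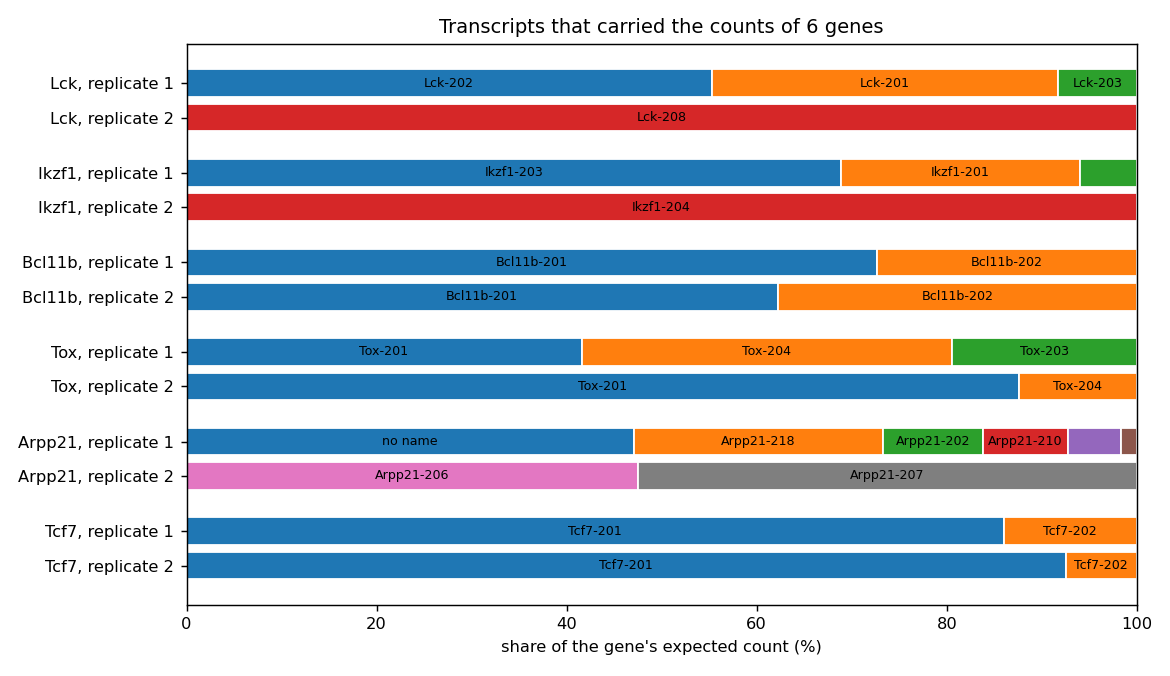
Share of the expected count of Lck, Ikzf1, Bcl11b, Tox, Arpp21 and Tcf7 (percent, horizontal) assigned to each annotated transcript, with replicate 1 above replicate 2 for each gene. Lck and Ikzf1 share no transcript between the libraries, whereas Bcl11b and Tcf7 are led by the same transcript in both.

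Genes of the T lineage outside the 33 were drawn from 5 lists. Of 66 genes, 65 were found and 44 had a ratio. By 2-fold, 23 of the 44 (52.3%) were higher in replicate 1, 4 (9.09%) were lower and 17 were neither, with a median log2 ratio of 1.35, against 16.1% higher and 15.3% lower over all genes. These lists were put together with earlier results of the same libraries known. In all, 17 of the 65 had 0 counts in both libraries.

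In the signalling list 11 of 15 were higher and none lower, with a median log2 ratio of 4.09. Its most abundant genes, which act in many tissues, were close in the libraries. Plcg1 had 5076 counts in replicate 1 and 5706 in replicate 2, and Fyn had 2433 in replicate 1 and 2024 in replicate 2. Vav1, of blood cells, had 197 in replicate 1 and 199 in replicate 2. Skap1, an adaptor of T cells, had 187 counts in replicate 1 and 1 in replicate 2, a ratio of 197 with an interval of 34.9 to 7824. Txk and Ubash3a had 0 in both. Picked after its values were seen, the adaptor Lcp2 had 145 counts in replicate 1 and 8 in replicate 2, a ratio of 19.1 with an interval of 9.44 to 45.1. Tespa1, a thymocyte signalling protein, picked likewise, had 119 in replicate 1 and 0 in replicate 2, at least 41.8-fold higher.

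In the list of transcription factors, 5 of 11 were higher and none lower, with a median log2 ratio of 0.50. Id3 had 6260 counts in replicate 1 and 7020 in replicate 2, and Ets1 had 6869 in replicate 1 and 8471 in replicate 2. Tcf12 had 6405 in replicate 1 and 4787 in replicate 2, and Notch1 had 13592 in replicate 1 and 10961 in replicate 2. These 4 are expressed well beyond T cells and none differed by 2-fold. Lef1, the relative of TCF1, had 381 counts in replicate 1 and 1 in replicate 2, a ratio of 401 with an interval of 71.6 to 15898. Gata3, needed for CD4 T cells, had 72 in replicate 1 and 0 in replicate 2, at least 25.3-fold higher. Lef1 and Gata3 were picked after their values were seen.

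The list of thymocyte surface genes was mixed, with 5 of 15 higher and 3 lower and a median log2 ratio of 0.28. S1pr1, the exit receptor of T cells and abundant in endothelium, had 14477 counts in replicate 1 and 12888 in replicate 2, and Cd24a had 1860 in replicate 1 and 2783 in replicate 2. Cd1d1 had 1147.96 in replicate 1 and 1523 in replicate 2, and Cd44 had 1788 in replicate 1 and 1329 in replicate 2. Il7r and Cd69 had 0 in both. Among genes picked after their values were seen, Ptprc, the CD45 gene of all white blood cells, had 1082 counts in replicate 1 and 246 in replicate 2, a ratio of 4.63 with an interval of 4.03 to 5.34. Ccr9, a chemokine receptor of thymocytes, had 427 in replicate 1 and 82 in replicate 2, a ratio of 5.49. In the other direction, Ccr7 (0 in replicate 1, 36 in replicate 2) was at least 11.4-fold lower, and it marks mature naive T cells. Ly6d had 21 in replicate 1 and 308 in replicate 2.

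Effector genes of mature T cells were mostly at 0. Of 12, 9 had 0 counts in both libraries, namely Foxp3, Pdcd1, Gzmb, Gzmk, Prf1, Ifng, Il2, Cd40lg and Tbx21. Gzma, a granzyme, had 200 counts in replicate 1 and 0 in replicate 2, at least 70.2-fold higher. Ctla4 had 8 in replicate 1 and 0 in replicate 2. Icos had 15 in replicate 1 and 34 in replicate 2, a ratio of 0.465 with an interval of 0.235 to 0.877, but its TPM runs the other way. Of the 8 genes of natural killer cells, 7 had 0 counts in both.

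**Figure D4:**
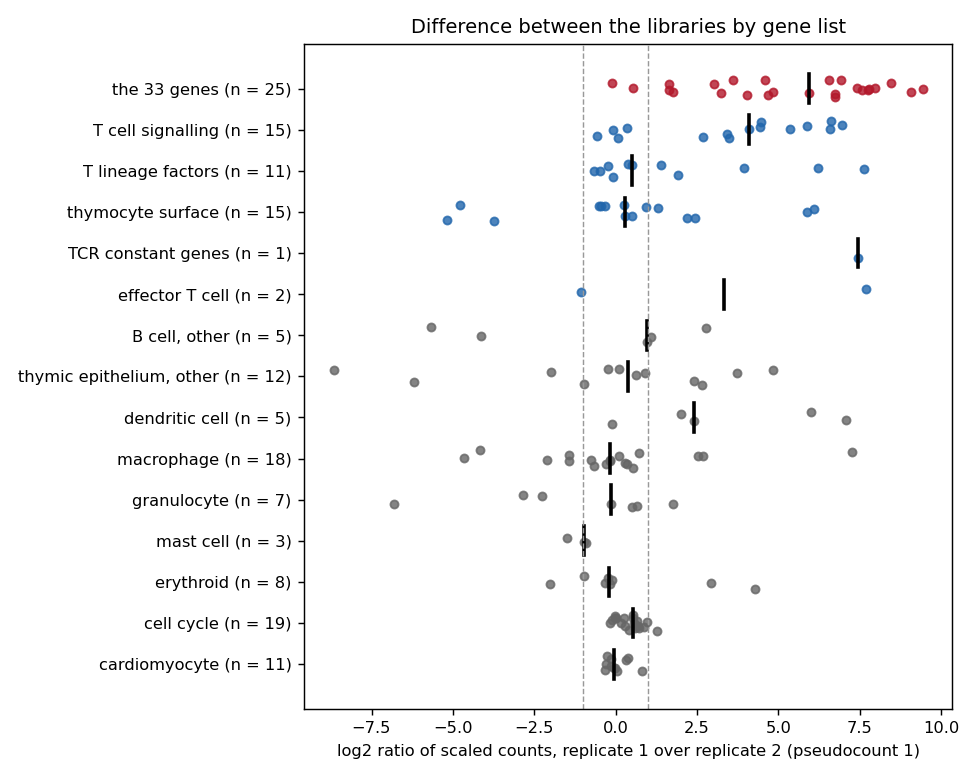
Log2 ratio of scaled counts, replicate 1 over replicate 2, for each gene with a ratio in the 33 genes (red), the T lineage lists (blue) and 9 of the lists of other cell types (grey), with the list median as a black bar and dashed lines at 2-fold. Most genes of the T cell signalling list (median 4.09) lie past 2-fold, and the cardiomyocyte list (median -0.06) has no gene past 2-fold.

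Markers of some other cells were also higher in replicate 1. In the dendritic cell list, 4 of 5 genes with a ratio were 2-fold or more higher in replicate 1 and none lower, with summed levels of 12.94 TPM in replicate 1 and 6.81 TPM in replicate 2. Cd74, the invariant chain of MHC class II, had 720 counts in replicate 1 and 186 in replicate 2. Zbtb46, a transcription factor of dendritic cells also made in endothelium, had 1167 in replicate 1 and 1327 in replicate 2 and did not reach 2-fold. H2-Aa, an MHC class II chain picked after its values were seen, had 131 in replicate 1 and 0 in replicate 2. The defining genes Flt3, Xcr1, Siglech, Batf3, Cd209a and Clec9a had 0 counts in both. The 18 macrophage genes summed to 74.81 TPM in replicate 1 and 90.01 TPM in replicate 2, with 3 higher (16.7%) and 5 lower (27.8%). Over all genes with a ratio, 16.1% were 2-fold or more higher in replicate 1 and 15.3% lower. Of the 7 granulocyte genes with a ratio, 1 was higher and 3 lower, and of the 3 mast cell genes none was higher and 1 lower. Of the 8 erythroid genes, 2 were higher and 1 lower.

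The 19 cell cycle genes, active in dividing thymocytes as in newborn heart, summed to 398 TPM in replicate 1 and 287.57 TPM in replicate 2, with a median log2 ratio of 0.52 and 1 gene past 2-fold. Markers of other organs lay in both directions. Each of these lists had few genes with a ratio, and over all genes 16.1% were 2-fold or more higher and 15.3% lower. Of the lung genes with a ratio, 4 of 6 were higher and 1 lower, with summed levels of 4.93 TPM in replicate 1 and 1.93 TPM in replicate 2. All 4 urothelial genes were lower, with summed levels of 5.41 TPM in replicate 1 and 80.85 TPM in replicate 2. For thyroid and parathyroid, 1 of 3 was higher and 1 lower, for adipose tissue 2 of 4 were higher and 1 lower, and for liver 4 of 8 were higher and 1 lower. Whether any of these markers has a part in the differences of the 33 genes was not tested.

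Of the 50 genes with the largest ratio, 8 were among the 33. The 15 outside the 33 with the largest ratios all had 0 counts in replicate 2, and their bounds ran from at least 78.0-fold to at least 148-fold. Of these, 5 depend on the estimate of the counts. With posterior mean counts in place of expected counts, the log2 ratio was 0.21 in place of 7.90 for Gm14440, 3.68 in place of 8.76 for ENSMUSG00000103235.1, 4.37 in place of 7.86 for Btg3, 4.89 in place of 8.17 for Gm20427 and 6.44 in place of 8.09 for Gm20683. Cytip (342 counts in replicate 1), Ptprcap (237) and Rasgrp1 (223) are known from lymphocytes, where RASGRP1 links the T cell receptor to Ras. Among the others, Cyp26b1 (312) degrades retinoic acid and Myh3 (222) is an embryonic skeletal muscle myosin. Rab11fip4 (379), Zkscan2 (319), Fam180a (303), Fam167a (254), Rsg1 (252) and Btg3 (224.81) were also in the group. The other 4 were Gm20427 (278.71), Gm20683 (263.5), Gm14440 (232.22) and ENSMUSG00000103235.1 (422.23), which had no name in the annotation used.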

How the data were processed

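Total RNA of newborn mouse heart was measured in 2 replicates of 1 group. Per the deposited notes, the authors quantified stranded paired reads on mm10 with GENCODE M4, in columns named as RSEM names them; for the aligner and program versions, these were not given in the sources used here. Deposited tables hold, per gene and transcript, expected counts, TPM and FPKM, posterior means of these, percent of a gene's abundance per transcript and an effective length in bases, a signal column that the authors' tables give per gene. Names and coordinates are from GENCODE M21, which matched 42462 of 43346 genes.

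Expected counts were compared unrounded between replicates, since the effective length of 1 gene can differ between libraries: scaled to a common total, centred so that the median gene among those averaging at least 1 TPM is at 0, with a pseudocount of 1, where the summed count was at least 10. A 2-fold difference was marked. With 1 group of 2, and genes picked by this contrast, no test was made. Ratio intervals are exact 95% counting intervals, and a count of 0 was set at 3 counts for bounds.

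Total expected counts of 69946215 in replicate 1 and 73615802 in replicate 2 set the precision. The 33 genes, the lists and the settings were chosen with earlier results of these data known. Beside the 33, the genes named were the 4 of highest mean TPM and those at 0 in both replicates in each T lineage list, the 2 of highest mean TPM in other lists where given, and the 15 of largest ratio outside the 33 at a summed count of 100 or more; exceptions are marked as picked after their values were seen, or are defining markers of a listed cell type. Of 266 listed symbols, 264 were found. A few listed genes are not reported here by name. The steps were tested on simulated data. Alternatives covered the unit, pseudocount, filter, centring (TMM factors, DESeq2 size factors, spike-in totals), fold and detection threshold. Scaling factors came from edgeR 4.0.16 and DESeq2 1.42.0 in R 4.3.3, and all else from scipy 1.17.1, pandas 2.3.3, numpy 2.4.6 and matplotlib 3.10.9 in Python 3.11.15.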

Additional observations from a re-analysis of the deposited data

How the results depend on the processing

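The number of the 33 genes that were 2-fold or more higher in replicate 1 ran from 18 of 20 with a summed count of at least 100 to 29 of 33 with no filter, around 23 of 25 as reported, and none was 2-fold lower under any setting run. The calls without a filter include Foxn1 and Pax5, each at 1 count in replicate 1 and 0 in replicate 2 (log2 ratio 1.02). They also include Rag2, Cd8b1 and Zap70, at 3 counts and 0, so the 29 adds no weight to the 23. Under posterior mean TPM 20 were higher, and Cd3g (log2 ratio 0.54), Cd4 (0.92) and Ikzf1 (0.70) fell short of 2-fold. The median log2 ratio of the 25 genes with a ratio, 5.95 from counts, was 3.18 from TPM, 3.58 from FPKM and 2.17 from posterior mean TPM. These 3 settings used a pseudocount of 0.1 TPM or 0.1 FPKM in place of 1 count. For Rag1, 3 counts were 0.0045 TPM in replicate 1, so 0.1 TPM stood for more than 1 count. A larger pseudocount lowers the ratio of a gene at 0 counts in replicate 2. How much of the drop in the median it made was not tested. The share of all genes 2-fold higher, 16.1% as reported, was 7.7% with no filter, 10.1% at a summed count of 100 and 10.1% at 4-fold. T lineage genes outside the 33 that were higher numbered 11 of 29 at a summed count of 100, against 23 of 44. Of the 33 genes, 6 reached 0.1 TPM in both replicates; leaving out 1 replicate gave 6 without replicate 1 and 25 without replicate 2, a threshold of 1 TPM gave 1, and posterior mean TPM gave 10. Icos turned round, with a log2 ratio of -1.06 from counts and 0.91 from TPM, 1.01 from FPKM and 0.85 from posterior mean TPM; its effective length was 520.93 bases in replicate 1 and 2952.79 in replicate 2. Scaling on ERCC spike-in totals placed the median gene at a log2 ratio of 0.22, against 0.01. Ratios between the replicates have no value when either is left out. No paired analysis was possible because there is 1 group and the numbers pair nothing. Depth limits the lowest genes: 0 counts of Cd3e still allows up to 3 counts, or 0.0248 TPM in replicate 1 and 0.0236 TPM in replicate 2.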
